A study of Homo sapiens with 6 samples.

Results

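The 44 genes described here belong to the unfolded protein response and the integrated stress response, the programmes by which a cell meets a load of misfolded protein in the endoplasmic reticulum (ER) or a shortage of amino acids. They were chosen by name, with no rule on their values but with earlier results of these data known. Of the 44 genes, 43 were measured, out of 19775 genes on the array. SYVN1, the ubiquitin ligase of ER-associated degradation (ERAD), has no value here because its probe set also names a microRNA gene. Each gene was represented by its probe set (a group of short probes against the same transcript) with the highest mean over all arrays, and by textbook knowledge 8 measured genes were placed in the IRE1-XBP1 arm, 14 in the ATF6 chaperone arm and 21 in the PERK-ATF4 arm, although many of them answer to more than 1 arm.

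RNA from ONS-76, an established human medulloblastoma cell line, was hybridized to 6 Affymetrix U133 Plus 2.0 arrays. For 3 arrays the cells had been given 1 siRNA, at 10 nM, to silence KDM1A, a histone demethylase also called LSD1 (siKDM1A), and for the other 3 the cells had received the transfection reagent alone (control). The methods describe independent transfections and an RNA harvest at 72 h, while the sample labels give 48 h and call the siRNA target KDM5A with LSD1 beside it. The control cells received no siRNA, so loss of KDM1A and delivery of an siRNA cannot be told apart in any difference, and a single siRNA in a single line limits what the groups stand for.

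In the unfolded protein response, 3 sensors sit in the ER membrane and are held inactive while the chaperone HSPA5 (BiP) is bound to them. IRE1, encoded by ERN1, splices the XBP1 mRNA so that an active transcription factor is made, and XBP1 then induces co-chaperones and ERAD factors. ATF6 is cut in the Golgi, and its released fragment induces ER chaperones and folding enzymes. PERK, encoded by EIF2AK3, phosphorylates the translation factor eIF2, which slows protein synthesis in general but favours translation of ATF4. ATF4 in turn induces DDIT3 (CHOP), feedback regulators and genes of amino acid synthesis, and the kinase GCN2, encoded by EIF2AK4, reaches the same factor when amino acids run short. Secretory cells and many tumours depend on this response. Splicing, cleavage, phosphorylation and translation were not measured, and the values below are mRNA levels.

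ATF6 and XBP1 bind short elements near the start of their target genes, and ATF4 binds another, so the members' promoters were searched for them. Promoter windows of 300 bases, from 250 before to 50 after the transcription start, were taken from RefSeq on build GRCh38.p14. The ER stress response element (CCAAT, 9 bases of any kind, then CCACG, on either strand) occurred in 25 of 27305 genes with a window (0.0916%). Among the members it occurred in XBP1 and in 7 of the 14 genes of the ATF6 chaperone arm (HSPA5, HSP90B1, CALR, CANX, PDIA6, ERO1B and CRELD2). The second form of the element (ATTGG, 1 base of any kind, then CCACG, on either strand) occurred in 19 genes (0.0696%), of which HYOU1, SDF2L1 and HERPUD1 are members. HYOU1 was also the member that held the core of the unfolded protein response (UPR) element, TGACGTGG on either strand, a motif of 253 genes (0.927%), and there it overlaps the farther of its matches to the second form. The C/EBP-ATF response element through which ATF4 acts, TGATGNAA on either strand, occurred in 1217 genes (4.46%), among them ASNS, CHAC1 and CEBPG of the PERK-ATF4 arm and HERPUD1 and CREB3L2 of the ATF6 chaperone arm. NUPR1 had no window. The arms were filled from textbook knowledge of this response, so more matches among members than over all genes are no independent result. A match is a feature of the sequence and not evidence of binding in these cells.

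The windows of 4 members that passed the test below are shown 5′ to 3′ on the strand of the gene, with the fixed letters of a matching element in capitals. HSPA5 (chr9:125241294-125241593, minus strand) and XBP1 (chr22:28800520-28800819, minus strand) hold the first form, with its first base at -66 and at -52 from the start. XBP1 has a second RefSeq window, which holds none of the motifs. SDF2L1 (chr22:21642052-21642351, plus strand) holds the second form in reverse, at -188. DNAJB9 (chr7:108569624-108569923, plus strand) had the largest difference of the 43 genes and holds none of the 4 motifs in this window.
HSPA5: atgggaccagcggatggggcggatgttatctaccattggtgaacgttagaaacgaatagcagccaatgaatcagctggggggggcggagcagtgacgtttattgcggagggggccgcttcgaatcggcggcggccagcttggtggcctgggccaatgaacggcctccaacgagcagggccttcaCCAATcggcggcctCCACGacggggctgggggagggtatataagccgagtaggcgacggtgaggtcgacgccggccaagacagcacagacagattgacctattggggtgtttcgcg
XBP1: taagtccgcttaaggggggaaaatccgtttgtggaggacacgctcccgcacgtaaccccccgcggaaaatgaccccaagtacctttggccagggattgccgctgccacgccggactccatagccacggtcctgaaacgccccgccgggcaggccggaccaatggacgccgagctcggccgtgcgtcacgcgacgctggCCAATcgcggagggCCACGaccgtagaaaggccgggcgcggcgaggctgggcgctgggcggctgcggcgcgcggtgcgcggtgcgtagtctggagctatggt
SDF2L1: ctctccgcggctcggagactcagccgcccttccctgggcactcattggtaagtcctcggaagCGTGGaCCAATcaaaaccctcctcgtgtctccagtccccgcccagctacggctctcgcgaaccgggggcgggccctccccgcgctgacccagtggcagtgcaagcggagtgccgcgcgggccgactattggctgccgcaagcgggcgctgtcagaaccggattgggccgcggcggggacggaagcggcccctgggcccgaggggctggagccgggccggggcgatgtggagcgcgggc
DNAJB9: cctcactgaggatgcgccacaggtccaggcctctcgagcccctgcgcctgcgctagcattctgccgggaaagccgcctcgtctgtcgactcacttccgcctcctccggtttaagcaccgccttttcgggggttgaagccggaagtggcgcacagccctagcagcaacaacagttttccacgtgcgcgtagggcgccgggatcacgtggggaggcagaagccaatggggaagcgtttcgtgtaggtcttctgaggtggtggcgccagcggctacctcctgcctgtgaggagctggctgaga

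The same fixed letters stood in members that passed the test and in members that did not. The matches of HSPA5 and XBP1 are shown here beside those of CANX, PDIA6 and HSP90B1, which did not pass and had log2 differences of -0.03, 0.12 and 0.16 (siKDM1A minus control).
HSPA5 element: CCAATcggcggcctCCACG
XBP1 element: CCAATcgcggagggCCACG
CANX element: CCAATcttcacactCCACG
PDIA6 element: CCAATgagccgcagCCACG
HSP90B1 element: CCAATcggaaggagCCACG
The matches of these 3 genes start at -9 in CANX, at -86 in PDIA6 and at -194 in HSP90B1, which has another in reverse at -89.

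**Figure D1:**
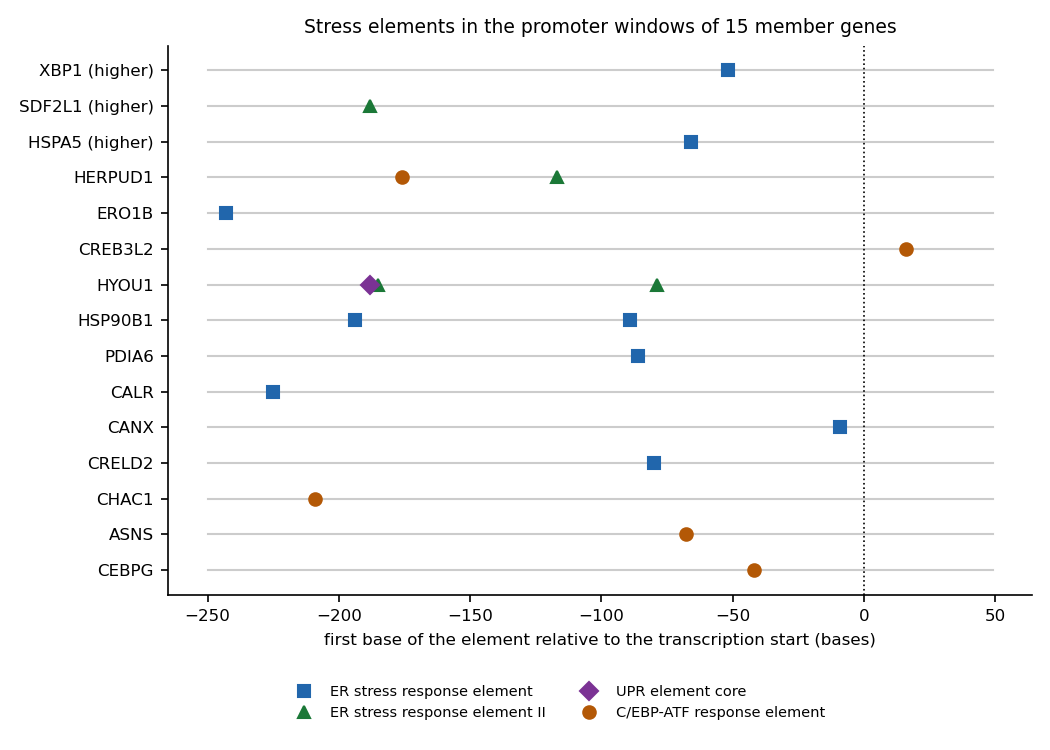
Position of each matching element in the promoter windows of the 15 measured members that hold any, with the horizontal axis giving the first base of the element relative to the transcription start in bases and the grey line the 300-base window. Squares are the ER stress response element, triangles its second form, the diamond the UPR element core and circles the C/EBP-ATF response element; XBP1, SDF2L1 and HSPA5 are marked as higher in siKDM1A cells, and the other 12 genes did not pass the test.

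The knockdown was checked first. KDM1A had log2 values of 6.25, 6.34 and 6.31 in siKDM1A cells, against 9.50, 9.57 and 9.49 in control cells, a difference of -3.22 (standard error 0.08, limma adjusted p = 7.1e-07). The targeted gene was therefore low on each array labelled as knockdown. All levels here are log2 values after RMA normalization, and a difference of 1 on this scale is a 2-fold change. Median values lay between 5.09 and 5.16 on the 6 arrays. The 3′ minus 5′ probe differences of ACTB, a sign of RNA integrity, ranged from 0.72 to 1.41 in siKDM1A and from 0.86 to 1.43 in control arrays, so these ranges overlapped.

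Of the 43 genes, 10 were higher in siKDM1A cells, 1 was lower and 32 did not pass the test (limma, Benjamini-Hochberg adjustment over all 54613 probe sets, threshold 0.05). The 10 were XBP1, DNAJB9, DNAJC3 and EDEM1 of the IRE1-XBP1 arm, HSPA5, SDF2L1 and MANF of the ATF6 chaperone arm, and DDIT3, PPP1R15A and TRIB3 of the PERK-ATF4 arm, and the gene that was lower was PHGDH. Over all genes, 3.45% were called higher and 5.46% lower, and over genes at least as bright as the median probe set these shares were 4.59% and 7.91%. The median log2 difference was 0.16 over the 43 genes, 0.36 in the IRE1-XBP1 arm, 0.16 in the ATF6 chaperone arm and 0.09 in the PERK-ATF4 arm, against 0.0069 over all genes. All siKDM1A arrays lay above all control arrays for 19 of the 43 genes and below them for 4, whereas over all genes these shares were 13.5% and 18.1%. DNAJB9 changed 2.05-fold, and the other 9 higher genes changed between 1.25-fold and 1.42-fold.

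With 3 arrays per group, most of these calls lay near the threshold. In the 6 fits that leave out a single array, the number of members called higher was 2, 1 and 1 without control replicate a, b or c, and 6, 1 and 4 without siKDM1A replicate a, b or c. On the brightest probe sets, DNAJB9 passed in all 6, and DNAJC3, HSPA5 and TRIB3 passed in none, although the dimmer probe set of HSPA5 passed in all 6. XBP1, SDF2L1, MANF and PPP1R15A passed without siKDM1A replicate a, DDIT3 and PHGDH without siKDM1A replicate c, and EDEM1 without control replicate a or siKDM1A replicate c, and none of these 7 in any other of the 6. By the one-way ANOVA that the methods name, TRIB3 alone of the 11 passed after adjustment.

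**Figure D2:**
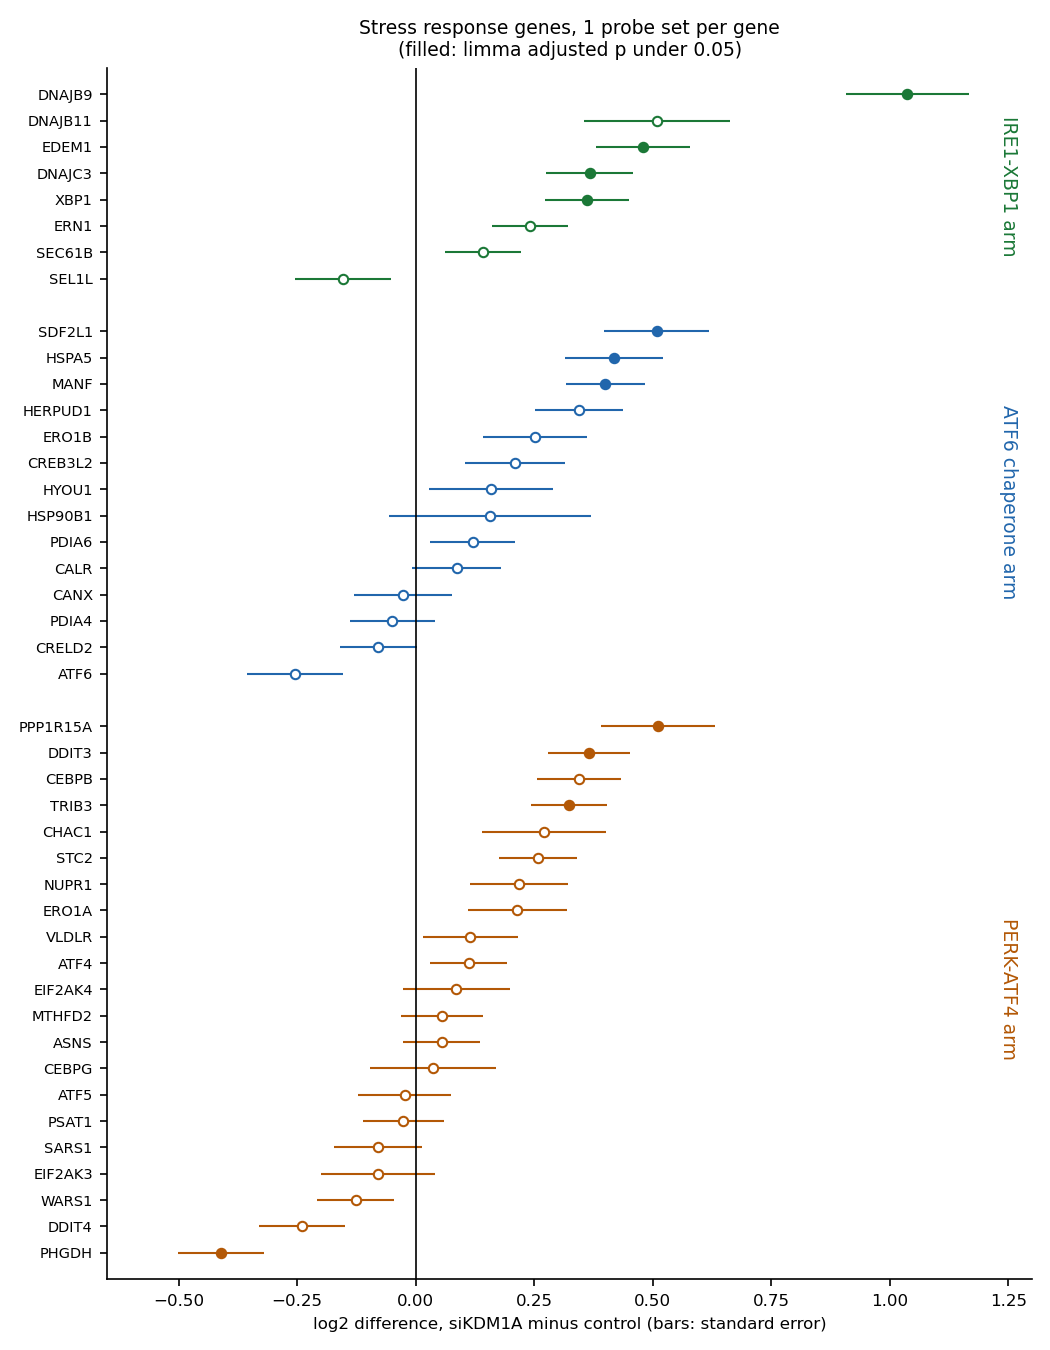
Log2 difference (siKDM1A minus control) of each of the 43 genes on its brightest probe set, grouped by arm, with bars giving the standard error; filled points passed the limma test. DNAJB9 stands at 1.04, the other higher genes lie between 0.32 and 0.51, and PHGDH lies at -0.41.

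The IRE1-XBP1 arm had 4 of its 8 measured genes higher and none lower, and for 7 of the 8 all siKDM1A arrays lay above all control arrays. ERN1, the sensor, had 6.33, 6.34 and 6.38 in siKDM1A cells, against 6.15, 6.05 and 6.13 in control cells. The arrays did not overlap, but the difference of 0.24 (standard error 0.08) did not pass the test (limma adjusted p = 0.13). XBP1, the transcription factor of the arm, had 8.50, 8.68 and 8.68 in siKDM1A cells, against 8.25, 8.30 and 8.23 in control cells. It was 1.29-fold higher (log2 difference 0.36, standard error 0.09, limma adjusted p = 0.046). Its other probe set, with values between 4.80 and 5.07 near the array median, had a difference of -0.05, and the mean of both had a difference of 0.16 that did not pass.

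DNAJB9, an ER co-chaperone that brings HSPA5 to misfolded proteins and to IRE1, had the largest difference of all members. Its values were 9.34, 9.72 and 9.52 in siKDM1A cells, against 8.32, 8.70 and 8.44 in control cells. The lowest siKDM1A array thus stood above the highest control array, and the difference was 1.04 (standard error 0.13, limma adjusted p = 0.0022). All 3 of its probe sets passed, with differences of 1.04, 1.03 and 1.20, and without a single array the adjusted p ranged from 0.0040 to 0.017.

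EDEM1, a lectin-like protein that draws misfolded glycoproteins into ERAD, had 9.83, 9.94 and 9.67 in siKDM1A cells, against 9.42, 9.33 and 9.25 in control cells. Its difference was 0.48 (standard error 0.10, limma adjusted p = 0.023), and it remained called without control replicate a or without siKDM1A replicate c. DNAJC3, a co-chaperone of HSPA5 that also inhibits PERK, had 9.21, 9.42 and 9.23 in siKDM1A cells, against 8.90, 8.98 and 8.88 in control cells. The groups did not overlap, and the difference of 0.37 (standard error 0.09) was at the threshold (limma adjusted p = 0.0497). Its 3 dimmer probe sets had differences of 0.28, 0.42 and 0.43, none of which passed. On the third brightest probe set, siKDM1A replicate c lay apart from the other siKDM1A arrays, with 5.07 beside 6.61 and 6.32.

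The remaining members of the arm did not pass. DNAJB11, another HSPA5 co-chaperone, had 10.47, 10.93 and 10.88 in siKDM1A cells, against 9.98, 10.43 and 10.35 in control cells. Its difference of 0.51 was as large as that of several called genes, but replicate a was the lowest array in both groups and the standard error was 0.15 (limma adjusted p = 0.098). Without siKDM1A replicate a it passed (limma adjusted p = 0.044). SEC61B, a subunit of the translocation channel, had a difference of 0.14, and SEL1L, the adaptor of the SYVN1 ligase, a difference of -0.15. The 4 probe sets of SEL1L gave differences from -0.15 to 0.24 and none passed.

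**Figure D3:**
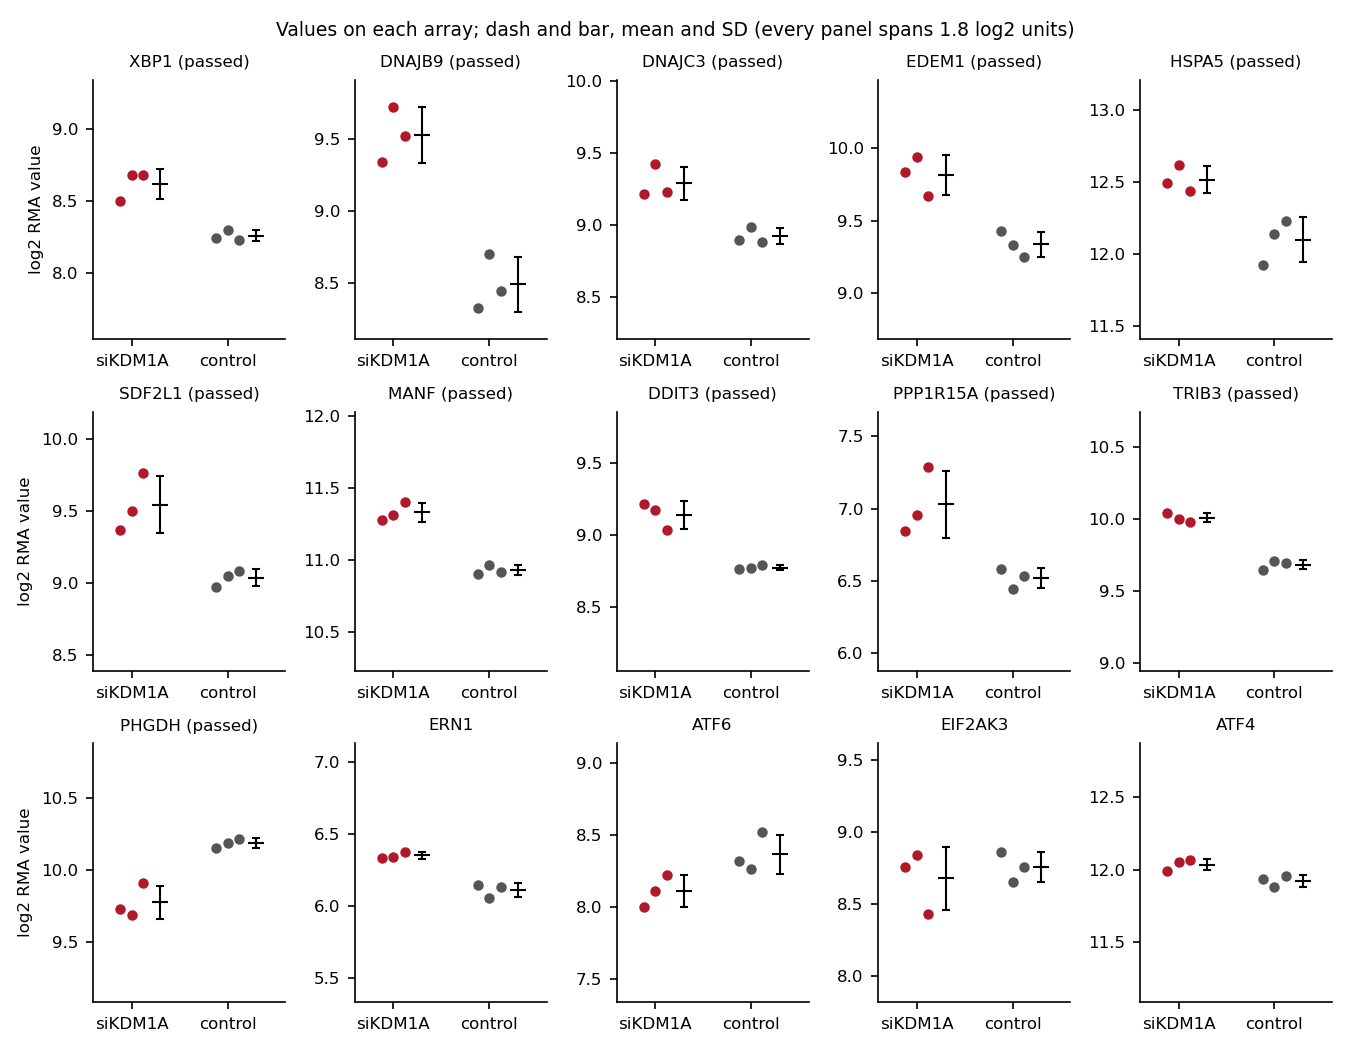
Log2 RMA values on each array for the 11 called genes and for ERN1, ATF6, EIF2AK3 and ATF4, with siKDM1A arrays left of control arrays; the dash and bar give the mean and SD of 3 arrays, and every panel spans the same 1.8 log2 units. The groups do not overlap in any panel except that of EIF2AK3.

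In the ATF6 chaperone arm, 3 of 14 genes were higher and none was lower on the brightest probe set. HSPA5, the main ER chaperone and the restraint on the sensors, had 12.49, 12.62 and 12.44 in siKDM1A cells, against 11.93, 12.14 and 12.23 in control cells. It was 1.34-fold higher (log2 difference 0.42, standard error 0.10, limma adjusted p = 0.048). Its second probe set, with 8.60, 8.73 and 8.60 in siKDM1A and 8.04, 8.06 and 8.12 in control cells, gave 0.57 (limma adjusted p = 0.0050). Both probe sets thus passed, the dimmer with the smaller p. Without a single array the adjusted p of the dimmer ranged from 0.012 to 0.028, and it also passed by the ANOVA (adjusted p = 0.040), whereas that of the brightest ranged from 0.066 to 0.15.

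SDF2L1, an ER protein that works beside HSPA5 and DNAJB11 in folding, had 9.37, 9.50 and 9.76 in siKDM1A cells, against 8.97, 9.05 and 9.08 in control cells. Its difference was 0.51 (standard error 0.11, limma adjusted p = 0.028), with the highest value on siKDM1A replicate c, and it passed in 1 of the 6 fits without an array. MANF, a small ER protein that is secreted under stress and protects neurons, had 11.28, 11.31 and 11.41 in siKDM1A cells, against 10.91, 10.97 and 10.92 in control cells. Its difference was 0.40 (standard error 0.08, limma adjusted p = 0.023), and it too passed in 1 of the 6. Each of these genes has a single probe set.

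The sensor itself had differences below 0 on all 4 of its probe sets, of which 1 passed the test. ATF6 had 7.998, 8.11 and 8.22 in siKDM1A cells, against 8.31, 8.26 and 8.52 in control cells, on its brightest probe set. That difference, -0.25 (standard error 0.10), did not pass (limma adjusted p = 0.22), although the groups did not overlap. On the next probe set ATF6 had 7.75, 7.80 and 7.68 in siKDM1A cells, against 8.14, 8.19 and 8.29 in control cells, a difference of -0.47 that passed (limma adjusted p = 0.015). The remaining probe sets gave -0.52 and -0.45 (limma adjusted p = 0.074 and 0.055), and the mean over all 4 gave -0.42, which passed. On each of these probe sets the groups did not overlap for ATF6.

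Most of the chaperones and folding enzymes that ATF6 is known to induce had small differences. HSP90B1, the ER paralogue of HSP90, had 10.18, 10.56 and 9.59 in siKDM1A cells, against 9.74, 10.001 and 10.11 in control cells. Its siKDM1A replicate c was the lowest of the 6 arrays, so the groups overlapped, and the difference was 0.16 with the widest standard error of the arm (0.21). The lectin chaperones CALR and CANX had differences of 0.09 and -0.03, the disulfide isomerases PDIA4 and PDIA6 had -0.05 and 0.12, the chaperone HYOU1 had 0.16, the ER protein CRELD2 had -0.08, the oxidase ERO1B had 0.25 and the ER-anchored factor CREB3L2 had 0.21. None of the probe sets of these 8 genes passed. The dimmer probe sets of CALR had larger differences, 0.18 and 0.45 (limma adjusted p = 0.42 and 0.077), and on them the groups did not overlap. HERPUD1, an ERAD scaffold, came nearest, with 10.17, 10.21 and 10.01 in siKDM1A cells, against 9.69, 9.83 and 9.84 in control cells (difference 0.34, limma adjusted p = 0.067).

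Called genes were found both with and without an ER stress response element in the window. Of the 11 measured genes of the IRE1-XBP1 and ATF6 chaperone arms with an element of either form, 3 were higher (XBP1, HSPA5 and SDF2L1) and the median log2 difference was 0.16. Of the 11 without, 4 were higher (DNAJB9, DNAJC3, EDEM1 and MANF) and the median was 0.24. Both counts stand beside 3.45% of all genes called higher. Of those with an element, 10 belong to the ATF6 chaperone arm. Of those without, 7 belong to the IRE1-XBP1 arm, so the groups also differ in arm. The counts of higher genes describe the windows searched and were not tested.

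In the PERK-ATF4 arm, 3 of 21 genes were higher and 1 was lower. The mRNAs of its sensor and its factor were not among them. EIF2AK3 had 8.76, 8.84 and 8.43 in siKDM1A cells, against 8.86, 8.65 and 8.76 in control cells, and the groups overlapped (difference -0.08, standard error 0.12, limma adjusted p = 0.79). Without siKDM1A replicate c, its lowest array, the difference was 0.0432. ATF4 had 11.99, 12.05 and 12.06 in siKDM1A cells, against 11.93, 11.88 and 11.96 in control cells. The difference of 0.11 (standard error 0.08) did not pass (limma adjusted p = 0.52). EIF2AK4 had a difference of 0.09.

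The higher genes of this arm are transcription and feedback regulators. DDIT3, the factor CHOP that promotes cell death under lasting stress, had 9.21, 9.18 and 9.03 in siKDM1A cells, against 8.76, 8.77 and 8.79 in control cells (difference 0.37, standard error 0.09, limma adjusted p = 0.039). The control arrays lay within a narrow band, and the lowest siKDM1A array was replicate c. PPP1R15A, which directs a phosphatase to eIF2 and so restores translation, had 6.84, 6.95 and 7.29 in siKDM1A cells, against 6.58, 6.44 and 6.53 in control cells (difference 0.51, standard error 0.12, limma adjusted p = 0.039). Its second probe set also passed, with a difference of 0.55 (limma adjusted p = 0.021). TRIB3, a pseudokinase induced by ATF4 and DDIT3 that restrains AKT signalling, had 10.04, 9.999 and 9.98 in siKDM1A cells, against 9.64, 9.71 and 9.69 in control cells. The difference of 0.32 had the smallest standard error of the called genes, 0.08 (limma adjusted p = 0.047), and its second probe set gave 0.23, which did not pass. CEBPB, a partner of ATF4 on C/EBP-ATF elements, missed the threshold, with a difference of 0.34 (limma adjusted p = 0.056).

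Among the genes of amino acid supply, PHGDH was lower and none was higher on its brightest probe set. Beside this, 5.46% of all genes were called lower and 3.45% higher. PHGDH, the first enzyme of serine synthesis, had 9.73, 9.69 and 9.91 in siKDM1A cells, against 10.15, 10.19 and 10.21 in control cells. All siKDM1A arrays were below all control arrays, and PHGDH fell by 0.41 on the log2 scale (standard error 0.09, limma adjusted p = 0.030), a call that held without siKDM1A replicate c and in none of the other fits without an array. PSAT1, the next enzyme of that route, had a difference of -0.03, asparagine synthetase (ASNS) 0.06, and MTHFD2 of mitochondrial one-carbon metabolism 0.06. The aminoacyl-tRNA synthetase genes WARS1 and SARS1 had -0.13 and -0.08 on their brightest probe sets. SARS1 has a second probe set, with 8.52, 8.73 and 8.51 in siKDM1A cells and 8.10, 8.23 and 8.20 in control cells, which passed as higher (difference 0.41, limma adjusted p = 0.035). On the brightest the groups overlapped (limma adjusted p = 0.71), so the call of SARS1 depends on the probe set.

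The other 8 members of the arm did not pass on their brightest probe set. STC2, a secreted glycoprotein, had 7.49, 7.50 and 7.53 in siKDM1A cells, against 7.32, 7.20 and 7.22 in control cells (difference 0.26, limma adjusted p = 0.11). Its second probe set had 7.37, 7.30 and 7.38 in siKDM1A and 6.75, 6.80 and 6.79 in control cells, and passed with a difference of 0.57 (limma adjusted p = 0.0038), as it did in all 6 fits without an array. Of the others, CHAC1, a glutathione-degrading enzyme, had 0.27, the stress regulator NUPR1 0.22, the oxidase ERO1A 0.21 and the lipoprotein receptor VLDLR 0.12. The dimmer probe sets of ERO1A had 0.37 and 0.35 without overlap of the groups, but did not pass (limma adjusted p = 0.099 and 0.082). The factors CEBPG and ATF5 had 0.04 and -0.02. DDIT4, an inhibitor of mTORC1 that stress induces, had 11.56, 11.47 and 11.57 in siKDM1A cells, against 11.65, 11.85 and 11.83 in control cells, a difference of -0.24 (limma adjusted p = 0.19).

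The 43 genes have 90 probe sets in all, of which 16 were higher and 2 lower, beside 2.63% and 4.26% of all probe sets that name a single gene. Of the 29 genes with several probe sets, DNAJB9, HSPA5 and PPP1R15A passed on every probe set. ATF6, SARS1 and STC2 passed on a dimmer probe set and not on the brightest. XBP1, DNAJC3 and TRIB3 passed on the brightest alone.

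**Figure D4:**
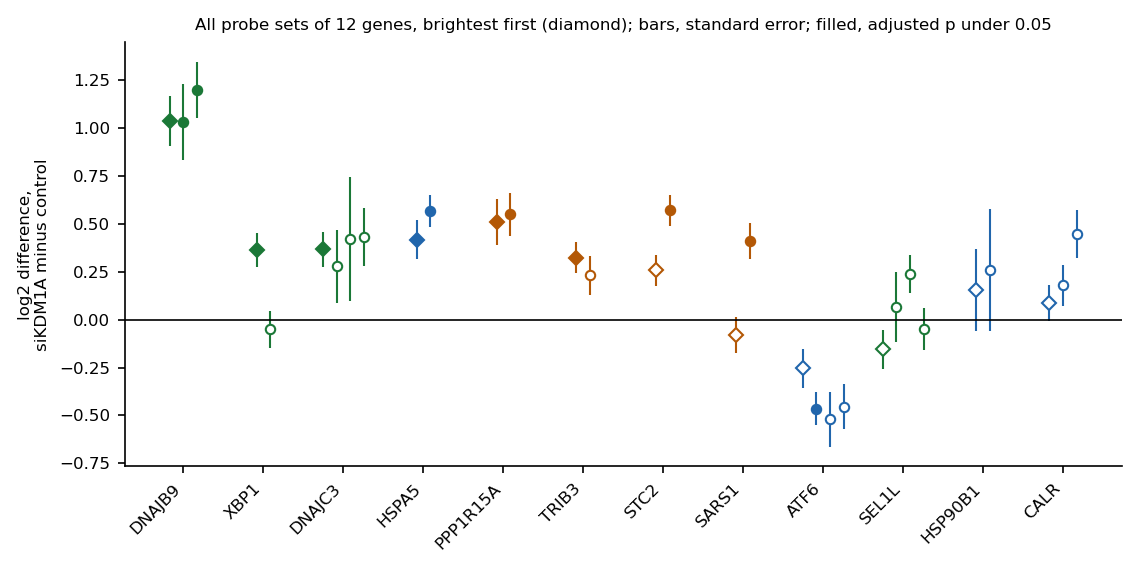
Log2 difference (siKDM1A minus control, with standard error) on every probe set of 12 members, the brightest drawn first as a diamond and filled points passing the limma test. The 3 probe sets of DNAJB9 lie between 1.03 and 1.20, all 4 of ATF6 lie below 0, and those of SARS1 lie on either side of 0.

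Other genes of these pathways were read from lists that hold no member, 107 measured genes in all, of which 8 were higher and 4 lower, beside 3.45% and 5.46% of all genes (medians are in the plot of lists). Among 22 further ER folding and ERAD genes, FKBP14, an ER prolyl isomerase, was the only gene called, with a difference of 0.72 (limma adjusted p = 0.0069) and 2 of 3 probe sets passing. Among 18 genes of ER translocation and vesicle export, SSR3 of the translocon-associated complex and SRPRA of the signal recognition receptor were higher (0.43 and 0.42), on 1 of 4 and 1 of 2 probe sets. Of 14 further regulators of the response, all siKDM1A arrays lay below all control arrays for 7 and above them for 2. Across all genes these shares were 18.1% and 13.5%. None of the 14 was called higher and 3 were called lower. These were CREB3L4, a relative of ATF6 (difference -0.70, limma adjusted p = 0.0027), CREBZF, which passed on 1 of 7 probe sets, and NFYA, a subunit of the factor that binds the CCAAT part of the ER stress response element (-0.40, 1 of 6 probe sets).

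Around eIF2 and ATF4, none of the 12 further genes of eIF2 kinases and eIF2 control passed the limma test. Of these, 4 had an unadjusted p under 0.05 and 0 passed by the adjusted ANOVA. All siKDM1A arrays lay below all control arrays for 6 of the 12 and above them for 0, beside 18.1% and 13.5% of all genes. Over all 19775 genes, 3.45% were called higher and 5.46% lower, 4778 had an unadjusted p under 0.05 and 437 passed by the adjusted ANOVA. Of 17 further ATF4 target genes for amino acid transport and synthesis, SLC7A11, the cystine transporter subunit, was higher (0.44, all 3 probe sets). None of 11 tRNA synthetase genes passed, with 1 at an unadjusted p under 0.05 and 0 by ANOVA. Of 13 stress regulators, 4 were higher and 1 was lower. GDF15, a stress cytokine, had a difference of 1.18 on 1 of 3 probe sets, the factor ATF3 0.85 on 1 of 3 and the growth factor VEGFA 0.71 on 3 of 4. The pro-apoptotic gene BCL2L11 had -0.44, with 2 of 7 probe sets passing. RAB39B, the fourth higher gene, was named after its values were seen.

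**Figure D5:**
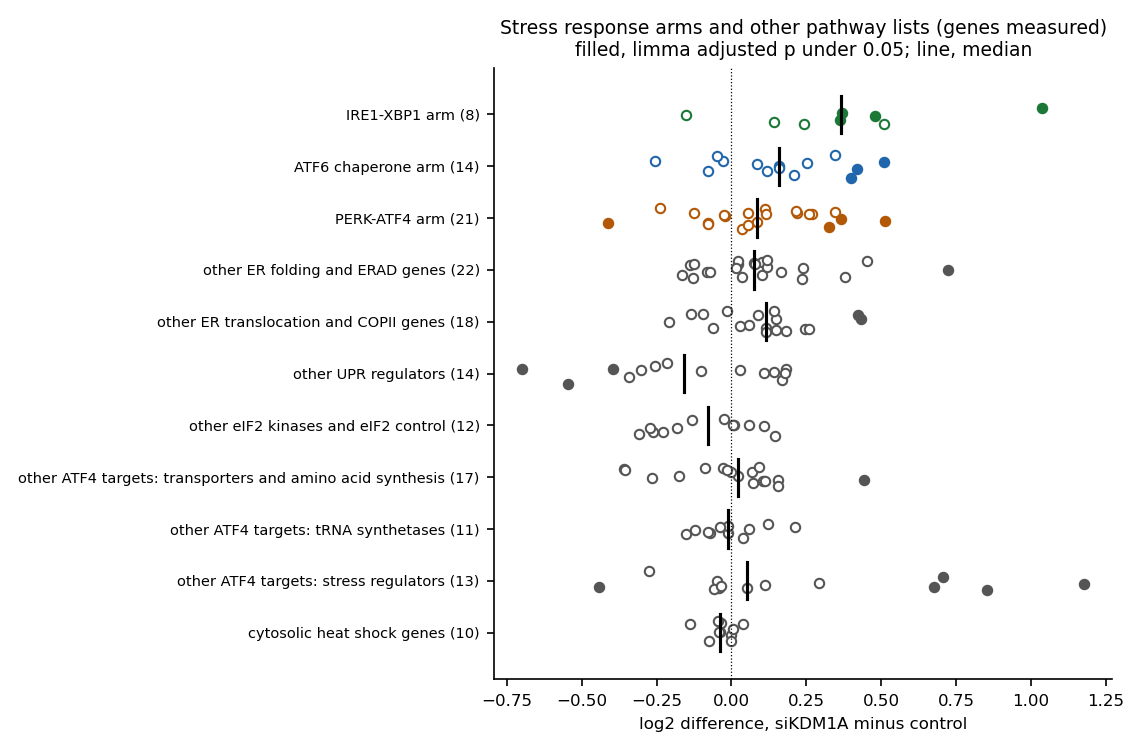
Log2 differences (siKDM1A minus control) of the genes of each arm and of 8 further lists, with the number of measured genes in parentheses, the median as a black line and filled points passing the limma test. The IRE1-XBP1 arm has the median farthest above 0, at 0.36, and the further regulators of the unfolded protein response lie lowest, at -0.16.

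Markers of the cells were read as well. Of 11 measured neural and medulloblastoma markers, MAP2 was higher (1 of 2 probe sets) and SOX2 (1 of 4), ZIC1 (1 of 3) and ZIC2 (its only probe set) were lower in siKDM1A cells. Over all genes, 3.45% were called higher and 5.46% lower. The dimmer probe sets of ZIC1 had differences of 0.05 and 0.04. TUBB3 had a difference of -0.19, NES 0.08 and ENO2 0.17, and none of these genes passed. VIM averaged 12.90 in siKDM1A and 13.03 in control cells, while the means of ATOH1 and SYP lay below the median of every array, and that of OTX2, at 2.90 and 2.92, below their lower quartiles of 3.63 to 3.70. The 4 measured leukocyte markers ranged from 3.24 to 5.30 in siKDM1A and from 3.34 to 5.32 in control cells and none passed. Of 5 epithelial, 4 endothelial and 5 fibroblast markers, KRT5 was lower and PECAM1 was higher on its brightest probe set, while the other 4 probe sets of PECAM1 had differences from -0.17 to -0.04. The other 4 epithelial markers had differences above 0 that did not pass. For KRT8 (0.35), KRT18 (0.18) and EPCAM (0.23) all siKDM1A arrays lay above all control arrays, as was so for 13.5% of all genes. EPCAM was as dim as OTX2 in this respect, since its means of 3.22 in siKDM1A and 2.98 in control cells were also under 3.63. The part of these markers in the results above was not tested.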

How the data were processed

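RNA of ONS-76 cells was measured on 3 siKDM1A and 3 control arrays. The authors processed the arrays with RMA in Partek Genomics Suite (version: not given in the sources used here); the deposited table holds log2 values of 54675 probe sets. RMA sets the arrays to a common intensity distribution, so a shift shared by most genes would be largely removed, and no detection call was made. All 6 deposited columns were used. Without the 62 control probe sets of the manufacturer, 54613 were tested, and the platform annotation gave a single gene for 41091, several genes for 1801 and none for 11721.

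The groups were compared on these values with limma 3.58.1 under R 4.3.3 (lmFit, then eBayes), two-sided, with Benjamini-Hochberg adjustment over all tested probe sets and a threshold of 0.05. The main limma fit was tested on simulated arrays with changes of 1.5-fold or more, larger than those of every called member but DNAJB9. The other steps were not simulated. The members, arms and lists were chosen with earlier results of these data known, and lists were described by counts and medians with no set test. The naming rule covered KDM1A, 7 sensors and factors, every called member and up to 4 called genes of each further list; other members were named to account for all of them. As alternatives, each array was left out in turn, the arrays were centred on their medians or normalized by cyclic loess, dim probe sets were left out, the variance prior was made robust and dependent on intensity, the replicate letter entered as a block, the methods' one-way ANOVA was used, a fold above 1.5 was required, and genes were represented by other probe sets. Promoter windows came from RefSeq (GRCh38.p14). A planned search of the proteins for ER retrieval signals was not run, because no protein sequences were used here. Arrays labelled as replicates were described in the methods as independent transfections.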

Additional observations from a re-analysis of the deposited data

How the results depend on the processing

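KDM1A and all 11 called members kept their direction in every alternative, but many of the calls were lost. Of the 11 called members, 11 remained called with dim probe sets left out and with a trend and robust prior, 10 with cyclic loess, 6 with median centring, 3 with the replicate block and 1 by ANOVA. With median centring, 5 members were higher (2 in the IRE1-XBP1 arm, 1 in the PERK-ATF4 arm), as were 5 genes of the further pathway lists. With cyclic loess, 0 members were lower (0 in the PERK-ATF4 arm), the median log2 difference was 0.204 over all members and 0.204 in the ATF6 chaperone arm, and 2 list genes were lower. These scalings gave all genes a median of -0.021 and 0.010. With a trend and robust prior, 2 members were lower, both in the PERK-ATF4 arm. Same-lettered arrays correlated at 0.11, 0.23 and -0.13 in their deviations from the group means, and differently lettered arrays at -0.32 to 0.18. In both groups the 3′ minus 5′ difference of ACTB was highest on replicate a and lowest on replicate b. Whether the letters pair samples was thus not settled, and the main fit did not pair them. With the replicate block, 4 members were higher (DNAJB9, EDEM1 and SDF2L1, and DNAJB11 with a limma adjusted p = 0.022) and 0 lower (1 higher in the ATF6 chaperone arm, 0 higher and 0 lower in the PERK-ATF4 arm), and 4 list genes were higher and 2 lower. By ANOVA, 275 probe sets were higher and 401 lower, 1 member was higher and 0 lower (0 higher in the IRE1-XBP1 arm, 0 in the ATF6 chaperone arm, 1 higher and 0 lower in the PERK-ATF4 arm), and 1 list gene was higher and 2 lower. With a fold above 1.5 required, 654 probe sets were higher and 785 lower, 1 member was higher and 0 lower (1 in the IRE1-XBP1 arm, 0 in the ATF6 chaperone arm, 0 and 0 in the PERK-ATF4 arm), and 5 list genes were higher and 1 lower. With each gene's probe sets averaged, 2 members were lower (1 in the ATF6 chaperone arm), 2 were higher in the IRE1-XBP1 arm, whose median was 0.270, and 6 were higher in the PERK-ATF4 arm. Without probe sets marked as cross-hybridizing or shared, 5 list genes were higher. With the probe set of smallest p, a choice that favours calls, 2 members were lower (1 in the ATF6 chaperone arm), 5 were higher in the PERK-ATF4 arm, the medians were 0.239 over all members, 0.231 in the ATF6 chaperone arm and 0.135 in the PERK-ATF4 arm, and 7 list genes were lower. Leaving out each array gave 609 to 1103 probe sets higher and 694 to 1563 lower, 1 to 6 members higher and 0 to 1 lower, 1 to 3 higher in the IRE1-XBP1 arm, 0 to 2 higher in the ATF6 chaperone arm, 0 to 1 higher and 0 to 1 lower in the PERK-ATF4 arm, and 4 to 5 list genes higher and 2 to 4 lower. The member median then ranged from 0.139 to 0.175, and that of the PERK-ATF4 arm from 0.0312 to 0.117. EIF2AK3 ranged from -0.162 to 0.0432, above 0 without siKDM1A replicate c. The ANOVA and the fits that use fewer arrays hold less information on the spread. The cause of these shifts was not tested for any of the alternatives. Precision is limited by having 3 arrays in each group.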

Other observations

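The heat shock response, which serves unfolded protein in the cytosol rather than in the ER, was read from a separate list. None of its 10 measured genes passed the limma test, with 0 at an unadjusted p under 0.05 and 0 by the adjusted ANOVA. Over all 19775 genes, 683 were higher and 1080 lower, 4778 had an unadjusted p under 0.05 and 437 passed by ANOVA, so that 0 calls among 10 genes is near the background. The log2 differences of the 10 genes (siKDM1A minus control) ranged from -0.14 to 0.04. The cytosolic chaperone HSP90AA1 had 13.30, 13.28 and 13.16 in siKDM1A cells, against 13.27, 13.25 and 13.32 in control cells. The co-chaperone DNAJB1 had 10.89, 10.91 and 10.93 in siKDM1A cells, against 10.83, 10.95 and 10.93 in control cells. DNAJA1 had the value farthest from 0, -0.14 (limma adjusted p = 0.48), and the mitochondrial chaperonin genes HSPD1 and HSPE1 had 0.04 and -0.04. HSPA1A, HSPA1B and HSPA8 share their probe sets with other genes in the annotation and were not analysed here. The genes named were chosen after their values were seen.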
